A study of Mus musculus with 2 samples.

Results

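The nuclear subunits of oxidative phosphorylation were followed by respiratory complex on 2 microarrays, 1 for wild-type progenitors of innate lymphoid cells (ILC) and 1 for progenitors labelled Yeats4 knockout. Members were taken by gene symbol in the platform annotation, with the patterns Nduf followed by a, b, s, v or c and a number, Sdha to Sdhd, Uqcr, Cox4 to Cox8 and Atp5. These patterns found 84 of the 19505 named genes, namely 37 of complex I, 4 of complex II, 8 of complex III, 18 of complex IV and 17 of complex V. Each member had 1 probe set. Per the design text, the wild-type animals were littermates of mice with a Yeats4 deletion, and in both genotypes the progenitors were sorted as lineage-negative and positive for CD127 and α4β7, and c-Kit and Sca-1 were both intermediate. The sources used here do not say how the deletion was made, nor the age, the strain or the number of the mice. Yeats4 encodes a YEATS domain protein that binds acetylated histones within chromatin complexes, and the comparison addresses which genes depend on it in these progenitors.

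Oxidative phosphorylation takes place in the inner mitochondrial membrane. Complex I oxidises NADH and complex II oxidises succinate, and both pass electrons to coenzyme Q. Complex III passes them on to cytochrome c, and complex IV hands them to oxygen. Complexes I, III and IV pump protons as they do so, and complex V, the ATP synthase, lets the protons return and makes ATP. A few membrane subunits are encoded by mitochondrial DNA and all others by nuclear genes, whose transcription is classically linked to the factors NRF1, GABP (an ETS family factor) and YY1.

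Because the members are classically linked to these factors, their promoters are shown with matches to motif letters in capitals. The window ran from 250 bases before to 50 bases after the annotated start. The motifs searched on both strands were GCGCA followed by any base and GCGC for NRF1, CCGGAAG for ETS factors and AAGATGGC for YY1. RefSeq windows (GRCm38.p6) were found for 69 of the 84 members, 74 windows in all. At least 1 of the 3 motifs was found in 52.7% of them, against 14.7% of all 32851 promoter windows and 19.5% of the 19143 windows of genes on the array. GC content was 57.3% in the members' windows and 56.7% in those of array genes. For each complex the stretch that ends at the base before the start is printed for the member with the largest difference among those with a match wholly before the start. Ndufs5 lies at chr4:123718187-123718294, Sdhd at chr9:50603850-50603949, Uqcr11 at chr10:80406822-80406921, Cox6b1 at chr7:30626115-30626214 and Atp5j at chr16:84834977-84835076. All 5 stretches are on the minus strand and are written 5′ to 3′. The capitals are NRF1 letters in Ndufs5, NRF1 and then ETS letters in Sdhd, ETS letters in Uqcr11 and Cox6b1, and YY1 and then ETS letters in Atp5j.
Ndufs5: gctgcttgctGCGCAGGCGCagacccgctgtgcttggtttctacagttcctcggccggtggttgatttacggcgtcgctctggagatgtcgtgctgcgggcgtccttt
Sdhd: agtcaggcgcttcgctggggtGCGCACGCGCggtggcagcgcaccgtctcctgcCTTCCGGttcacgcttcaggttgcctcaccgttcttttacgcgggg
Uqcr11: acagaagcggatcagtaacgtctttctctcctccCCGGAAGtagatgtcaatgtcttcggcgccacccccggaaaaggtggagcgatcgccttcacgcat
Cox6b1: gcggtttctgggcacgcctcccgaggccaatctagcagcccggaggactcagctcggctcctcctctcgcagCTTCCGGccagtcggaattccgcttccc
Atp5j: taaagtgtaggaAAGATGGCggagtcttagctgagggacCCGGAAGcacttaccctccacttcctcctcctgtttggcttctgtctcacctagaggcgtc

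Values are log2 probe set levels, and where 2 are given for a gene the wild-type array comes first. A difference is the level on the array labelled knockout (the knockout array) less the wild-type level, and each genotype has only 1 array, so nothing could be tested. Each difference is instead set beside 2 local values, the median and the scaled median absolute deviation (local spread) over its 500 neighbours in mean level. These describe the scatter between the arrays. A gene under the 95th percentile of the 5222 negative controls on both arrays (4.80 in wild type, 4.73 in the other) is called near background. The level filter, a mean of both arrays at or above 2.88, kept 10881 genes, whose median difference was 0.08. Yeats4 read 5.96 and 5.90, and since the position of its probes relative to the deletion is not known here, its level does not check the label. Since sorted cells were measured in bulk, fewer cells of a type and less RNA per cell cannot be told apart.

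Subunit genes of all 5 complexes read slightly higher on the array labelled knockout. Of the 84 members 79 passed the level filter, and 73 of these had a difference above 0, against 58.2% of all genes past the filter and 66.7% of the 5545 genes at or above the 75th percentile of level. The other 6 were below 0, against 41% and 33.1% of these genes. Their median difference was 0.25 (binomial interval over members 0.22 to 0.34), and 59 of the 79 lay above the median of the genes nearest in level, against 49.8% of all genes. No member differed 2-fold, while 1.56% of genes were past 2-fold higher and 0.781% past 2-fold lower. At a threshold of 1.5-fold, 11 members were higher and none was lower, against 9.16% and 5.15% of all genes, or 7.77% and 1.88% of those at or above the 75th percentile. Of these 11, Ndufs1 and Sdha were near background on both arrays, and Ndufa9, Ndufv3, Ndufa1 and Ndufs5 were under the negative controls on the wild-type array. The differences were therefore small, and most members shared them.

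The complexes had similar medians and unequal scatter. The median difference was 0.32 for complex I (interval 0.16 to 0.49), 0.28 for complex III (0.02 to 0.52), 0.24 for complex IV (0.03 to 0.40) and 0.25 for complex V (0.19 to 0.37). For complex II, with 4 genes, it was 0.42 with a range of 0.11 to 0.64. These sizes depend on the trend with level: after a loess correction on level the medians were 0.17 (I), 0.29 (II), 0.14 (III), 0.10 (IV) and 0.10 (V). The intervals of the reported medians overlap, and whether the complexes differ could not be tested with these arrays. The standard deviation among members was 0.28 in complex I and 0.12 in complex V. The genes nearest in level to the members of complex I also scattered more, with a median local spread of 0.30 against 0.21 for complex V. As grouped by symbol, all 11 members past 1.5-fold were in complexes I and II, 9 of 36 and 2 of 4 past the filter, against 9.16% of all genes. The median local spread was 0.30, 0.34 and 0.30 for complexes I to III, and 0.22 and 0.21 for IV and V. What this scatter contributes to the counts was not tested. The 9 of complex I include Ndufa4, which is named for complex I but now placed in complex IV.

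**Figure D1:**
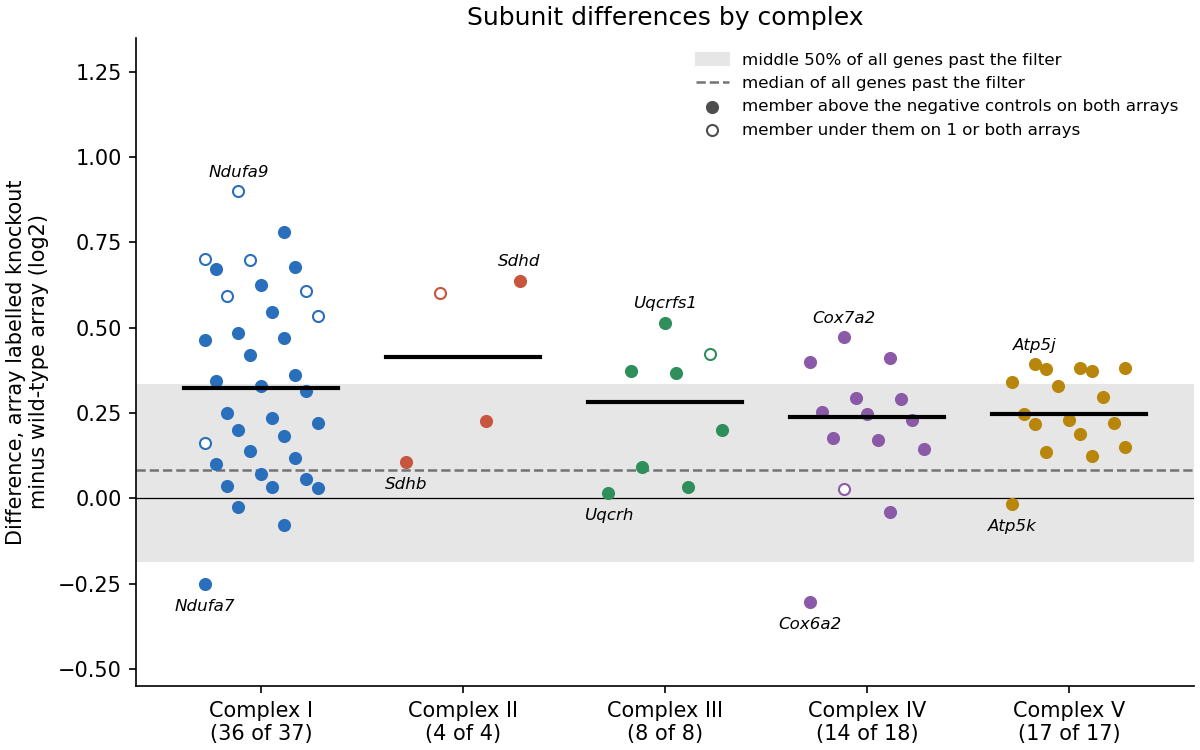
Difference between the arrays (log2, vertical axis) for each member past the level filter, by complex, with the number past the filter of all members under each name; black bars are medians, the grey band holds the middle 50% of all genes, and open circles are members under the negative controls on 1 or both arrays. The medians lie between 0.24 and 0.42, above the dashed median of all genes at 0.08, and the members of complex I spread from -0.25 to 0.90.

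The core subunits of complex I in its matrix arm carry the flavin and the iron-sulfur clusters that lead electrons from NADH to coenzyme Q. All 6 measured ones were above 0 as deposited, Ndufs3 not so after loess or quantile scaling, with a median of 0.41 (range 0.03 to 0.78). Ndufv2 (Entrez gene 72900), an iron-sulfur subunit beside the flavin, read 5.05 in wild type and 5.83 in the knockout array, 1.72-fold higher against a local spread of 0.40. Only 23 of the 500 genes nearest in level were higher than Ndufv2. Ndufs7, which holds the last cluster before coenzyme Q, read 7.03 and 7.50 (difference 0.47), and the iron-sulfur subunit Ndufs8 read 8.01 and 8.37 (0.36). Ndufv1, the subunit that binds the flavin, read 6.57 and 6.82 (0.25). Ndufs3 hardly differed, at 7.45 and 7.48. Ndufs1, the largest core subunit, read 4.03 and 4.64, near background on both arrays.

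Accessory subunits of the matrix arm gave both the highest and the lowest values of complex I. Ndufa9 (Entrez gene 66108), which sits near the quinone pocket, read 4.70 and 5.60. That was the largest difference of all members at 0.90 (local spread 0.34), and only 6 of the 500 nearest genes were higher. Since the wild-type reading was under the negative controls, Ndufa9 read at least 1.73-fold higher on these arrays. Ndufa5 read 6.03 and 6.70, 1.60-fold higher, and Ndufa12 read 6.97 and 7.46 (0.49). Ndufv3, under the negative controls on the wild-type array, read 4.53 and 5.12 and was at least 1.25-fold higher. For these 4, between 6 and 46 of the 500 nearest genes were higher. Ndufs4 (0.34) and Ndufa6 (0.24) also lay above their local medians, with 139 and 202 of 500 higher. Ndufs6 (0.04) and Ndufa2 (0.03) were almost equal on the arrays. Ndufa7 was lower, at 5.33 and 5.08 (-0.25), and 426 of the 500 nearest genes were higher. The 9 genes had a median of 0.34 (interval 0.03 to 0.68).

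The membrane arm of complex I pumps protons, and its 19 measured accessory subunits had a median of 0.20 (interval 0.10 to 0.54). Ndufa1, an X-linked subunit needed for assembly of the complex, read 4.80 and 5.50, and Ndufs5, on the intermembrane side, also read 4.80 and 5.50. Both wild-type readings were just under the negative controls, and both genes read at least 1.62-fold higher, with 31 and 32 of the 500 nearest genes higher. Ndufb5 read 6.22 and 6.84 (0.63), and Ndufc1 read 7.88 and 8.43 (0.55). The value of Ndufc1 is the clearer one, with a local spread of 0.20 and 23 of 500 nearest genes higher. Ndufb10 (4.03 and 4.57) and Ndufb3 (4.40 and 4.56) were near background on both arrays. Small positive differences were read for Ndufb2 (0.42), Ndufa10 (0.33), Ndufa11 (0.31), Ndufb4 (0.22), Ndufb6 (0.20) and Ndufb7 (0.18). Ndufb9 (0.14), Ndufb11 (0.12), Ndufc2 (0.10), Ndufa8 (0.07) and Ndufa13 (0.06) were within 0.15 of 0. The lowest were Ndufa3 (9.11 and 9.08) and Ndufb8 (5.61 and 5.53). Large and absent differences thus occurred side by side in this arm, with 13 of 19 subunits above the median of genes of like level.

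Ndufa4, named for complex I but now placed in complex IV, stood out most from genes of its level. It read 7.85 and 8.52, 1.59-fold higher, with a local spread of 0.20 and only 5 of the 500 nearest genes above it. Its low-oxygen paralog Ndufa4l2 read 2.54 and 2.84, under the level filter. Ndufb4b, a copy of Ndufb4 listed as a gene of its own, read 7.37 and 7.83, while Ndufb4 read 7.63 and 7.85. Probes for such close copies may share RNA, so this pair cannot be told apart with certainty. In complex I as a whole 5 of 36 genes (13.9%) lay among the highest 5% of the genes nearest in level, against 4.93% of all genes. Over all members past the filter the same 5 genes were 6.33% of 79, near the share of all genes. They were Ndufa4, Ndufa9, Ndufc1, Ndufa5 and Ndufv2. As grouped by symbol, no member of complexes II to V was among the highest 5%, but Ndufa4 is counted in complex I only by its name.

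**Figure D2:**
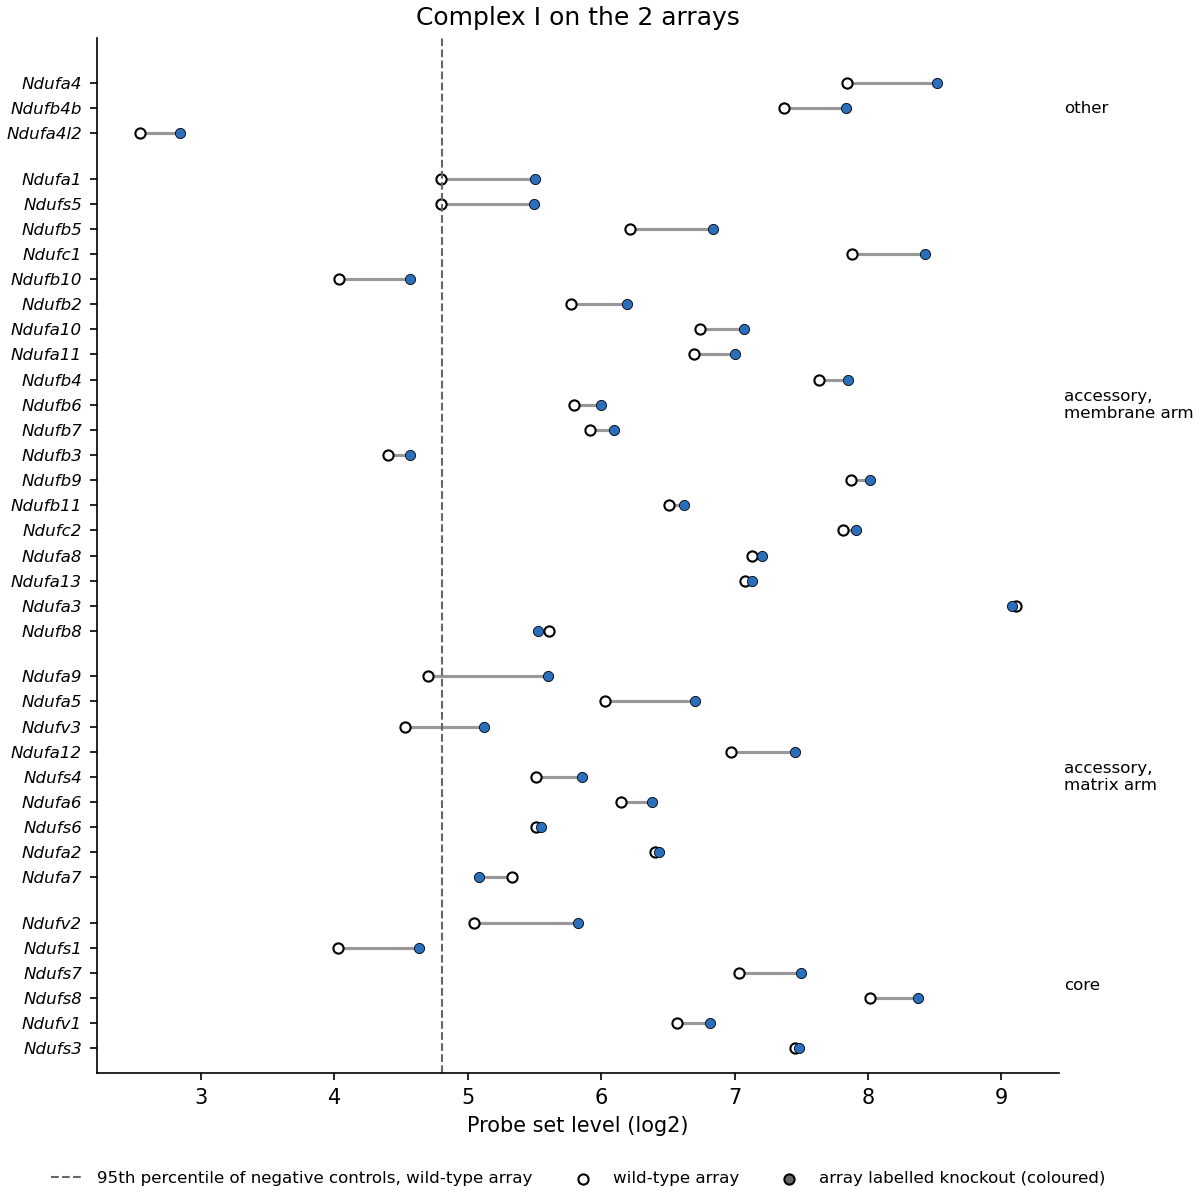
Level of each complex I gene in wild type (open) and in the knockout array (filled), in log2, by part of the complex, with the 95th percentile of the negative controls dashed. The filled point lies to the right for 34 of 37 genes, by up to 0.90 for Ndufa9, and to the left for Ndufa7, Ndufb8 and Ndufa3; levels of different genes are not comparable.

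Complex II, succinate dehydrogenase, links the tricarboxylic acid (TCA) cycle to the respiratory chain and is wholly nuclear. Its 4 genes were all above 0 as deposited, and Sdhb was below 0 after loess or quantile scaling. Sdhd, a membrane anchor, read 6.07 and 6.71, 1.56-fold higher (local spread 0.30), and the other anchor Sdhc read 5.29 and 5.52 (0.23). The iron-sulfur subunit Sdhb read 6.62 and 6.73 (0.11), below the local median of 0.18. The flavoprotein Sdha read 3.52 and 4.13 (0.60), near background on both arrays. The median of this complex lies between the differences of Sdhc and of Sdha, the gene near background. It was 0.17 once low values were raised to that of the negative controls.

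In complex III the catalytic and core proteins differed more than most small subunits. Uqcrfs1, the Rieske iron-sulfur protein that takes electrons from coenzyme Q, read 5.92 and 6.43 (0.52). The core proteins Uqcrc1 (6.24 and 6.61) and Uqcrc2 (5.77 and 6.14) each differed by 0.37. These 3 lay above the genes nearest in level, by less than 1.2 local spreads. Of the 5 small subunits, Uqcr11 read 4.67 and 5.09 and was at least 1.22-fold higher, with its wild-type reading under the negative controls. Uqcrb, a small subunit near the quinone site, read 8.16 and 8.36 (0.20). Uqcrq (0.09), Uqcr10 (0.03) and the hinge protein Uqcrh (0.02) were the lowest, lay below the local median, and were below 0 after loess or quantile scaling.

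Complex IV, cytochrome c oxidase, has a catalytic core from mitochondrial DNA surrounded by nuclear subunits, several of which have tissue isoforms. The 10 usual somatic subunits were even, with a standard deviation of 0.10 among them, all 10 above the median of genes nearest in level and a median difference of 0.25 (interval 0.17 to 0.40). The highest were Cox7a2 (6.16 and 6.63, difference 0.47), Cox6c (8.67 and 9.07, 0.40) and Cox7b (7.33 and 7.62, 0.29). The lowest were Cox7c (10.00 and 10.14, 0.14), Cox4i1 (7.57 and 7.75, 0.17) and Cox5b (7.72 and 7.89, 0.18). In between lay Cox6b1 (0.29), Cox8a (0.25), Cox5a (0.25) and Cox6a1 (0.23). Each exceeded the local median by less than 1.5 local spreads, so the group is described by its evenness and not by any single gene.

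Of the 7 tissue isoforms of complex IV only 3 passed the level filter, and these were not even. Cox6a2, the heart and muscle form of Cox6a1, was the lowest of all members. It read 8.86 in wild type and 8.55 in the knockout array, 1.23-fold lower (-0.30, local spread 0.18), and 484 of the 500 nearest genes were higher. Its counterpart Cox6a1 read 9.09 and 9.32. Cox6b2, a testis form, read 5.40 and 5.82 (0.41), the same direction as Cox6b1. Cox4i2, the lung form, read 3.70 and 3.72, near background. The muscle forms Cox7a1 (1.96 and 2.54) and Cox8b (1.94 and 1.77) and the testis forms Cox7b2 (1.58 and 1.51) and Cox8c (2.46 and 2.28) were under the level filter. Cox7a2l, a factor that joins complexes III and IV into supercomplexes, read 7.15 and 7.12.

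Complex V showed the narrowest range, with 16 of 17 genes above 0 (13 after loess) and differences from -0.02 to 0.39. In the catalytic F1 head the central stalk genes Atp5e (5.72 and 6.10, difference 0.37) and Atp5d (8.53 and 8.87, 0.34) were highest. The catalytic beta subunit Atp5b read 9.03 and 9.26 (0.23). The gamma subunit Atp5c1 (0.14) and the alpha subunit Atp5a1 (0.12) did not exceed genes of like level. The proton-driven ring is built of subunit c, which is made from 3 genes, and all 3 were above the genes nearest in level. They were Atp5g1 (8.82 and 9.20), Atp5g2 (8.66 and 8.99) and Atp5g3 (7.61 and 7.83). In the peripheral stalk, which holds the head still, Atp5j (6.65 and 7.04, 0.39) and Atp5o (6.91 and 7.21, 0.30) were above Atp5h (0.19) and Atp5pb (0.15). Among the other membrane subunits Atp5md (0.38), Atp5mpl (0.38), Atp5j2 (0.25) and Atp5l (0.22) were above 0, and Atp5k read 5.20 and 5.19. No gene of complex V was under the negative control level on either array.

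**Figure D3:**
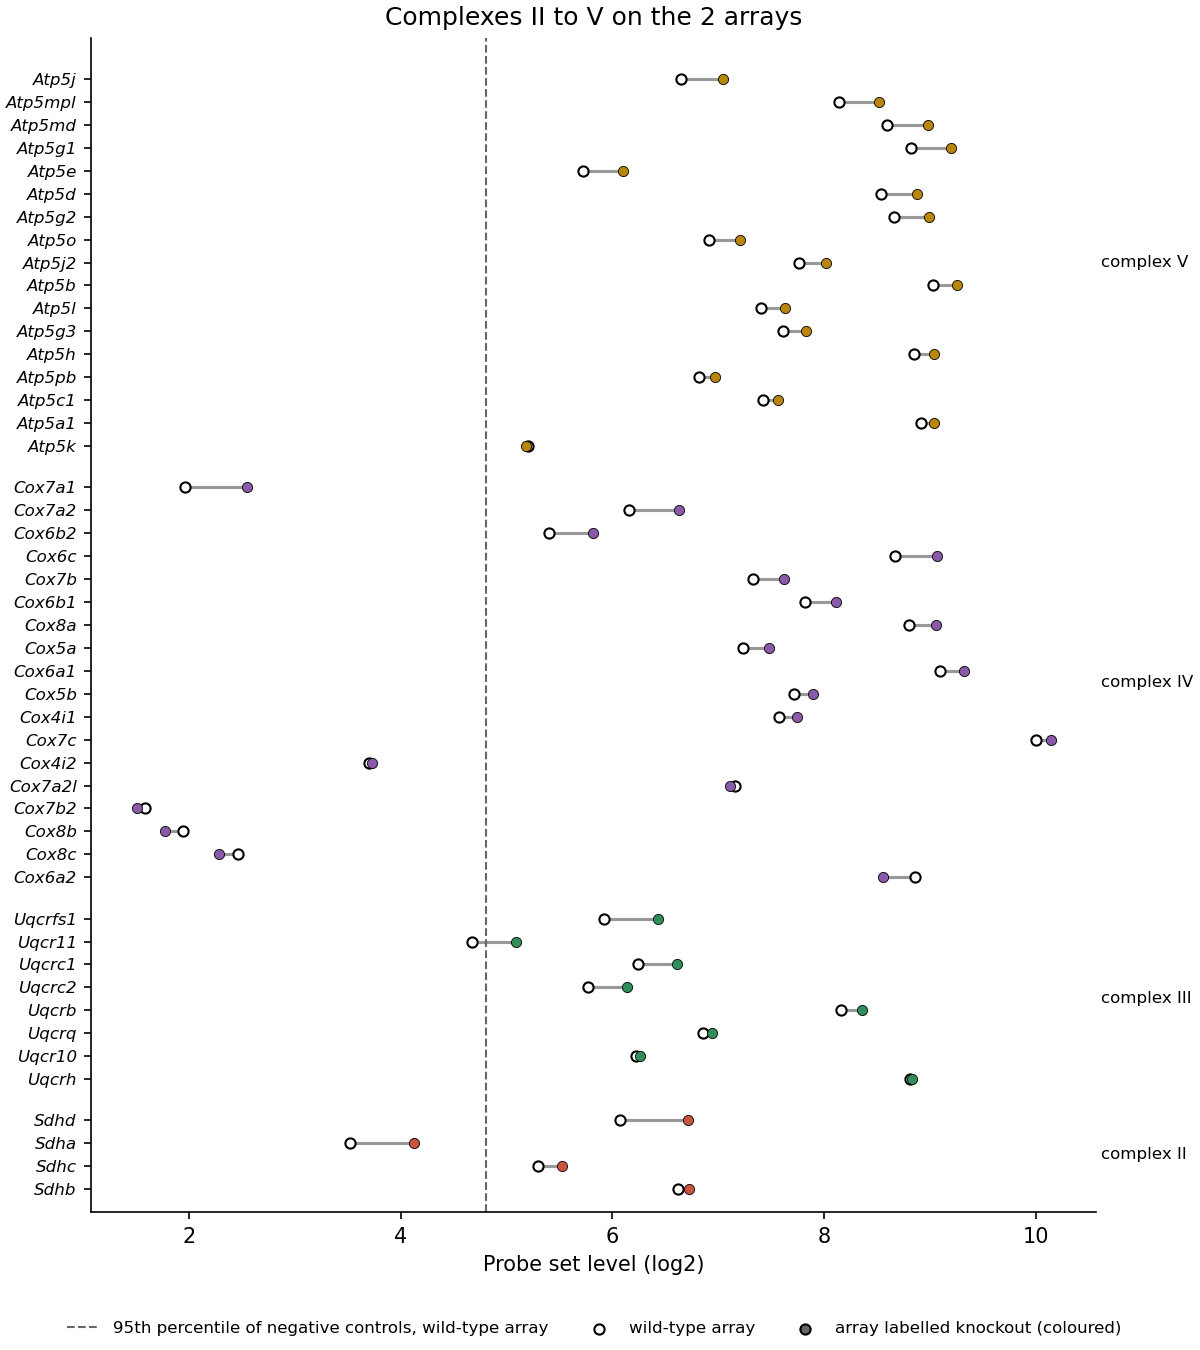
Level of each gene of complexes II to V in wild type (open) and in the knockout array (filled), in log2, with the 95th percentile of the negative controls dashed. Cox6a2 is the bright gene whose filled point lies clearly to the left, 0.30 lower, while the complex V genes shift to the right by at most 0.39; levels of different genes are not comparable.

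Bright genes in general also read higher. The median difference of all genes went from -0.04 at mean levels under 4 to 0.17 between 6 and 7, and was 0.13 at 8 or more. At 8 or more the 19 members had a median of 0.25, and under 6 the 22 members past the filter had a median of 0.39 against 0.05 for all genes there. These 22 were brighter than all genes under 6 (median wild-type levels 5.12 and 4.37), and their median excess over the local median was 0.23. Of the 22, 5 were near background on both arrays and 5 more under the negative controls on the wild-type array. After a loess correction on level 58 of the 79 members were above 0, the median of the members was 0.11 and that of all genes 0.00. All complex medians stayed above 0, but 15 single members changed sign under this correction. They were Atp5a1, Atp5c1, Atp5pb, Ndufa13, Ndufa2, Ndufa8, Ndufb11, Ndufb9, Ndufc2, Ndufs3, Ndufs6, Sdhb, Uqcr10, Uqcrh and Uqcrq. Quantile normalization of the table changed the sign of 11 of these and centring on the array medians that of Atp5k and Ndufa3, so the sign of these genes depends on the scaling.

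**Figure D4:**
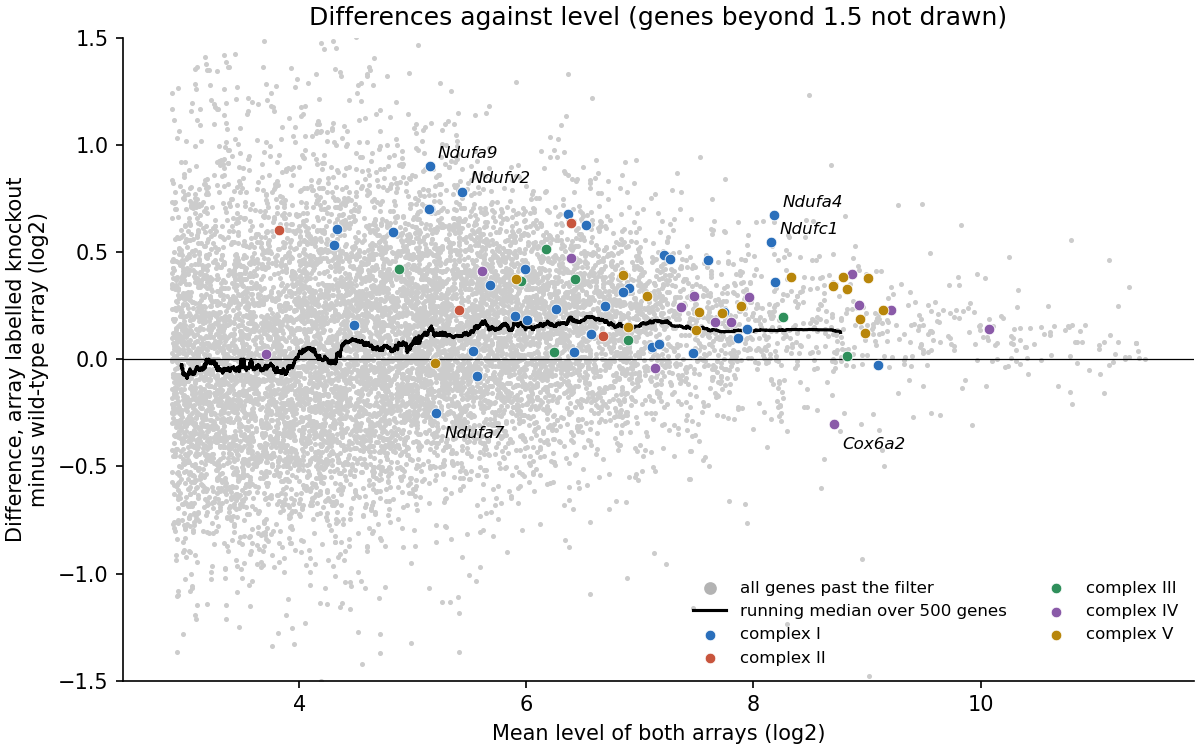
Difference between the arrays against the mean level of both (log2 axes) for all genes past the level filter in grey and members in colour by complex, with a running median over 500 genes in black. Most coloured points lie above the black line, 59 of 79 above their local median, with Cox6a2 and Ndufa7 the lowest.

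**Figure D5:**
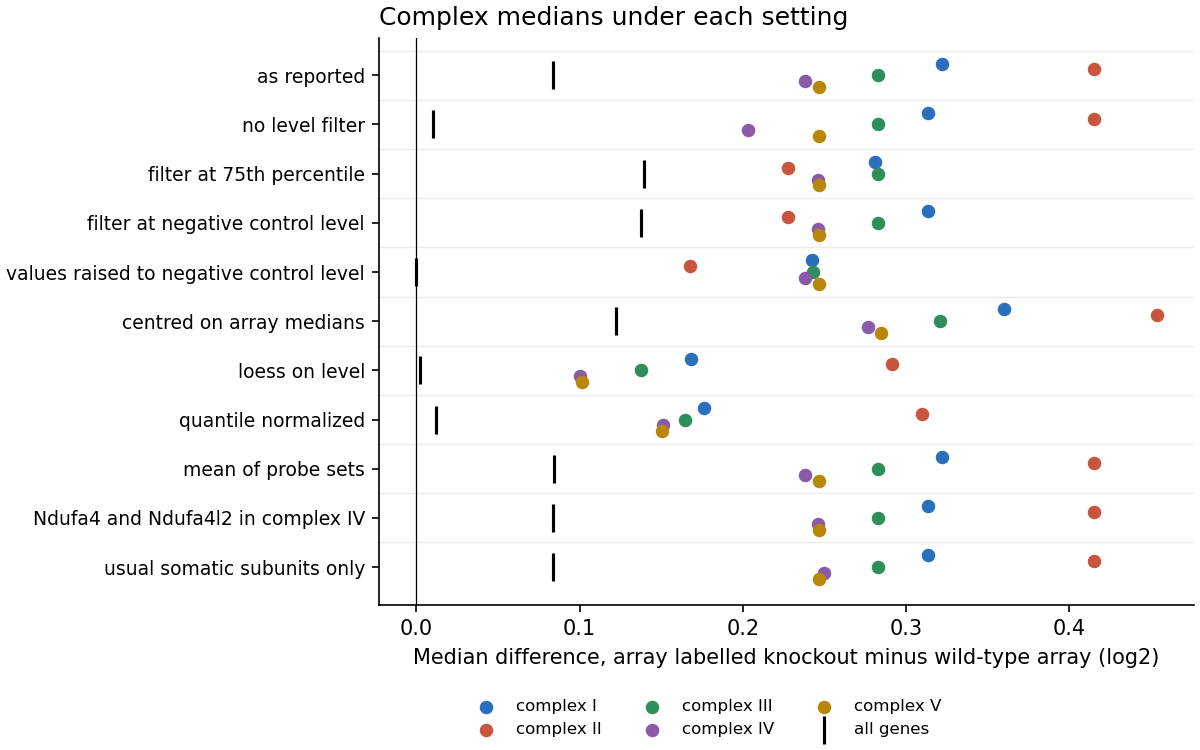
Median difference (log2, horizontal axis) of each complex, coloured, and of all genes, black marks, under each processing setting. Every complex median stays above 0 and above that of all genes, between 0.10 and 0.45, while complex II changes place from highest to lowest with the filter on level.

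The subunits encoded by mitochondrial DNA had no named probe set. The array holds 9 unnamed probe sets whose identifiers carry M where others carry a chromosome. That code matched the RefSeq chromosome for 19503 of 19508 named probe sets. The 9 read between 8.02 and 11.22 in wild type and between 7.55 and 11.22 on the other. Their differences ran from -0.47 to 0.19 with a median of -0.04, and 4 of 9 were above 0. They did not show the offset of the nuclear subunits, though which transcripts they measure is not known here.

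Other nuclear genes of the pathway were read from fixed lists. Their counts above 0 stand beside 58.2% of all genes past the filter and 66.7% of those at or above the 75th percentile of level. Ndufab1 (6.33 and 6.68), the acyl carrier of complex I, and Cyc1 (5.34 and 5.74), the cytochrome of complex III, are subunits outside the symbol patterns and differed by 0.35 and 0.40. Cytochrome c, Cycs, read 7.99 and 8.45 (0.46). With the coenzyme Q synthesis genes it formed a list of 9 past the filter with a median of 0.11 and 6 above 0, in which Coq7, near background, was at 0.72 and Coq5 at 0.55. Coq2, with its wild-type reading under the negative controls, was at least 1.21-fold higher. Of the other donors of electrons to coenzyme Q, all 6 were above 0 (median 0.24), led by the glycerophosphate dehydrogenase gene Gpd2 (4.84 and 5.47). Only 4 of the 6 lay above the local median.

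The TCA cycle and pyruvate dehydrogenase list resembled the subunits, with 15 of 16 genes above 0 and a median of 0.34 (interval 0.17 to 0.46). Among all genes past the filter 58.2% were above 0. Dlat, the acetyl transferase of pyruvate dehydrogenase, read 5.10 and 5.97 (0.86), with 5 of 500 nearest genes higher. Dld, the dihydrolipoamide dehydrogenase shared by pyruvate and oxoglutarate dehydrogenases, read 5.59 and 6.40 (0.81), and the isocitrate dehydrogenase gene Idh3a read 6.11 and 6.83 (0.72). Carriers of ATP, ADP and phosphate and the outer membrane channels were even, with all 6 above 0 and a range of 0.27 to 0.42. Slc25a5, an ADP/ATP carrier, read 9.64 and 9.99, the channel gene Vdac3 read 6.78 and 7.20 (0.42), and Vdac1 read 6.30 and 6.71 (0.40).

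Assembly factors help build the complexes without being part of them. Their differences scattered with standard deviations of 0.54, 0.41 and 0.53 for the factors of complex I, of complexes II and III and of complex IV, where the median local spreads were 0.43, 0.43 and 0.40. For the members these values were 0.23 and 0.27. The complex I factors had a median of 0.11 with 7 of 13 above 0, and 9 of 13 were near background. Among them were Ndufaf3 (3.62 and 4.72), Ndufaf2 (3.57 and 2.62) and Tmem70 (3.83 and 4.68). The factors of complexes II and III had a median of 0.30 with 7 of 8 above 0 and 5 of 8 near background, where Ttc19, near background, was at 1.26. Bcs1l, which inserts the Rieske protein, was at 0.37, as was Uqcc1, near background. Complex IV factors had a median of 0.33 with 12 of 17 above 0 (70.6%). Of all genes past the filter 58.2% were above 0, and of those at or above the 75th percentile of level 66.7%. Cox15, needed to make haem A, read 3.88 and 5.13 and was at least 1.25-fold higher. The copper chaperone gene Cox17 read 5.71 and 6.46 (0.75) and was above background on both arrays. Sco1 (1.18) and Lrpprc (1.10) were near background. The ATP synthase inhibitor gene Atpif1 read 7.70 and 8.16, and the assembly factor Atpaf1 was at -0.16.

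The regulators of mitochondrial gene expression had a median of 0.26 (interval -0.30 to 0.46) with 9 of 13 above 0 (69.2%, against 58.2% of all genes). Only 7 of the 13 lay above the median of all genes, and 6 were near background on both arrays. Nrf1, whose motif letters are printed above, read 4.98 and 5.79, 1.76-fold higher with 19 of 500 nearest genes above it. The mitochondrial transcription factor gene Tfb2m read 4.11 and 4.89, at least 1.06-fold higher, and Myc, a general driver of biosynthesis genes, read 8.32 and 8.78 (0.46). Gabpa was at 0.26 and Yy1 at -0.02.

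Motif letters and differences were then set side by side. The NRF1 letters were in 24.3% of the members' windows against 6.77% of those of array genes and 4.60% of all windows. The ETS letters were in 23.0% against 11.8% and 8.86%, and the YY1 letters in 13.5% against 3.10% and 2.75%. The YY1 letters occurred in 7 of 33 genes of complex I and 3 of 15 of complex V with a window. They occurred in none of the 21 genes of the other complexes that had a window. At a share of 3.10% a group of 21 can easily hold none, so no difference between complexes is read from these counts. The 17 members with NRF1 letters had a median difference of 0.24 (range -0.02 to 0.70), and the 49 others past the filter with a window had 0.29 (range -0.25 to 0.90). The 17 with ETS letters were at 0.23 against 0.31 for the 49 without, and the 10 with YY1 letters at 0.30 against 0.29 for the 56 without. Members with and without each set of letters thus covered overlapping ranges. A match is a description of letters and not of binding.

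Markers of other blood cells moved between the same arrays, and their part in the differences above was not tested. Of all genes past the filter 41% were lower and 58.2% higher. Of 9 T cell markers 8 were lower, with a summed linear level of 638 in wild type and 193 in the knockout array. The B cell markers were lower in 7 of 7 (sums 1200 and 634), and the eosinophil markers past the filter in 4 of 5 (sums over 6 markers 1957 and 661). Macrophage markers were higher in 7 of 7 (354 and 582). Neutrophil and monocyte markers were higher in 4 of 8 (6989 and 8824), and erythroid markers past the filter in 1 of 4 (sums over 5 markers 179 and 204). These sums follow the brightest genes, and the median differences were -0.08 and -0.30. Elane, Mpo, Prtn3 and Ctsg were higher, while Ltf, Camp, Mmp9 and Itgam were lower. Among erythroid markers past the filter only Car1 (0.42) was higher. The ILC progenitor markers, 3 of 8 of which were higher, summed to 1572 and 1545, but single genes differed in opposite directions. Id2, a regulator of ILC development, read 7.88 and 9.11, 2.35-fold higher with none of the 500 nearest genes above it. Nfil3, another such regulator, read 9.43 and 8.49 (-0.93). The sort markers did not move together. Il7r, which encodes CD127, read 7.07 and 6.38 (-0.70), and Kit, which encodes c-Kit, read 7.12 and 7.77 (0.65). Itga4 (0.004) and Itgb7 (-0.14), the genes of α4β7, differed less. Of the T cell markers Themis and Cd2, and of the macrophage markers Cd5l and Adgre1, were near background on both arrays, while Cd3e (7.79 and 5.69), Cd79a (8.33 and 7.56) and C1qb (6.17 and 6.76) were above it on both.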

How the data were processed

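RNA of each genotype was measured on 1 Affymetrix array. The authors deposited RMA values on the log2 scale, 1 per probe set, made with Affymetrix Power Tools per the submitters' processing notes. RMA corrects background, equalises the arrays' probe distributions and then summarises probes, so a global change in RNA amount may be hidden. The summarised values were not fully equal, with array medians of 2.91 and 2.87, and quantile normalization of the table moved the members' median from 0.25 to 0.17. Tool versions and the genome build are not given in the sources used. The design text names another array design than the one whose annotation matches the probe sets, and gene names rest on that annotation. Of 29129 probe sets, 19572 have 1 gene symbol and none has several. For genes with several probe sets the brightest was used. Values were used as deposited, and each array gives 1 reading with no replicate, so precision is limited by their number. Members, lists, markers and alternatives were chosen with earlier results of these data known. All members are named by complex, and in other pathway lists mainly the 3 largest differences and those past 2-fold. Marker lists are given mainly as counts and sums. The subunit Ndufb4b, found by the symbol patterns, was added to complex I after the files were seen. Sums of markers are of 2 raised to the log2 level. The interval of a median is an order-statistic binomial interval (95%) over genes, not mice. Median, interval and local spread were tested on simulated data, with noise that was independent between genes and of constant size. The intervals were thus not checked for genes that vary together or for a spread that changes with level. Computations used Python 3.11.15, numpy 2.4.6, pandas 2.3.3, scipy 1.17.1, statsmodels 0.14.6 and matplotlib 3.10.9. The 11 alternatives changed the level filter, background, centring, normalization, probe set choice, membership and fold threshold.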

Additional observations from a re-analysis of the deposited data

How the results depend on the processing

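The medians of the 5 complexes and of the whole list were computed under 11 alternatives. Of these 66 values 28 were identical to the reported one, since the change left their middle genes as they were. Among the 28 are all values for the fold threshold and for averaging probe sets, which could not alter these medians. All of the 38 others were above 0, and 34 lay inside the interval, or for complex II the range, of the reported one. The exceptions were under the loess correction, where complex V was at 0.10 and all members at 0.11, and under quantile normalization, where they were at 0.15 and 0.17. Lying inside is a loose measure, since these intervals are wide. Under loess complexes I, III and IV went from 0.32, 0.28 and 0.24 to 0.17, 0.14 and 0.10 and still lay inside. Centring on the array medians shifted every difference by the same small amount. The order of the complexes was not stable. Only 6 alternatives altered the complex II median. Complex II was highest under 3 of them, as in the reported setting (array median centring, loess and quantile normalization). It was lowest under the other 3, which are the filters at the 75th percentile and at the negative control level, and values raised to that level. Under both filters Sdha dropped out and 2 of the 3 remaining complex II genes lay above the median of all genes. With a 1.5-fold threshold 11 members were higher in place of none. No paired analysis was possible because each genotype has 1 array. Depth does not apply to arrays; 5 members past the level filter were near background on both arrays and 5 more under the negative controls on 1 array, the wild type, so their size rests on weak signal.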
